A study of Mus musculus with 8 samples.

Results

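The Spata (spermatogenesis associated) and Tex (testis expressed) genes were followed in testis RNA of mice at postnatal day 23, with and without CTCFL. Every probe set of the Affymetrix Mouse430_2 array was taken whose gene symbol was Spata or Tex followed directly by a number, with 1 gene left out. The choice used names only and no measured value. It gave 55 of 45101 probe sets, for 33 genes, of which 29 probe sets stood for 16 Spata genes and 26 for 17 Tex genes. Of these genes, 14 had more than 1 probe set, and 3 probe sets (that of Spata21 and both of Tex21) carried a second symbol, so that their signal cannot be assigned to 1 gene alone.

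There were 8 arrays, 1 per testis sample, of which 5 were labelled wildtype (replicates 1, 2, 4, 6 and 7) and 3 CTCFL mutant (replicates 3, 5 and 8). CTCFL, also called BORIS, is a germ cell paralog of the zinc finger protein CTCF. Mutant mice were homozygous for a Ctcfl del allele that lacks the first part of the gene, made by Cre recombination from an allele carrying GFP and selection cassettes. The study's text calls the control animals heterozygous (Ctcfl del/+) littermates, and the labels call them wildtype. The name in the labels is used here, and controls may thus carry 1 del allele. All mice were kept on a C57/Bl6 background. Ctcfl itself was not analysed here, which left the genotypes without a check from their own target. That the samples came from separate animals is not stated sample by sample, so p-values measure the spread between these arrays.

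The members share a name for where they were found, not a protein family. In spermatogenesis, spermatogonia divide, spermatocytes recombine and segregate their chromosomes in meiosis, and the haploid spermatids then build the acrosome, flagellum and compacted nucleus of sperm. In juvenile mice this first wave runs through the testis with age, so that spermatids are a recent and growing population. The members were placed by general knowledge, with earlier results of these data known, in 3 role groups. Of them, 22 probe sets (13 genes) were assigned to spermatids and sperm, 10 (9 genes) to meiosis and other germ cell functions, and 23 (11 genes) to broadly expressed proteins. The functions of Spata1, Spata4, Spata9, Tex9, Tex18, Tex21, Tex22 and Tex24 are less settled, and their placement is a working one.

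Promoters of the members were compared first, since several of them moved together across the arrays. RefSeq (GRCm38.p6) gave 32 promoters of 300 bases each for 27 of the 33 genes, most of it before the gene's start and a short stretch after. They were searched on both strands for the cAMP response element TGACGTCA, which CREM binds in spermatids, for its shorter form TGACG, which lies within it, for the TATA box TATAAA, and for AGGGGGC, a stretch of the consensus that CTCF and CTCFL share. The full element was found in 1 member gene, Spata7, and in 1.79% of all 32851 promoters. TGACG was found in 9 member promoters of 8 genes (Spata1, Spata18, Spata2, Spata5, Spata5l1, Spata6, Spata7 and Tex19.2), beside 20.8% of all promoters. TATAAA was found for Spata4, Tex10 and Tex19.1, beside 13.6% of all. AGGGGGC was found in 7 promoters of 6 genes (Spata1, Spata21, Spata9, Tex10, Tex19.1 and Tex2), beside 10.6% of all. A match describes the letters and is no measured binding site. The promoters below belong to 5 genes with some of the widest ranges over the arrays, with matches to any of these motifs, on either strand, in capitals. That of Spata3, the member with the widest range, held none of the 4 motifs, so the 5 promoters shown have no searched motif in common. These 5 are not the widest in order. Spata19, next in range at 2.06, had promoters with none of the motifs and is not shown. Tex24 (range 1.74) varied more than Spata9, Spata21 and Spata7, but no promoter sequence was available for it. Spata5l1 (range 1.23), with TGACG, varied more than Spata7 (1.19) and is not shown either.
Spata3 promoter (GRCm38.p6, chr1:86021695-86021994, + strand): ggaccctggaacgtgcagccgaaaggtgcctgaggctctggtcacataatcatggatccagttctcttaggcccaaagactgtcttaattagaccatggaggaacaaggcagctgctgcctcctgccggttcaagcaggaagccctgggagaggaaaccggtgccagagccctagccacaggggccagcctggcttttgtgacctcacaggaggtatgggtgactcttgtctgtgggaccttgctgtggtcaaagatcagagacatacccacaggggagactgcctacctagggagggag
Spata18 promoter (GRCm38.p6, chr5:73651130-73651429, + strand): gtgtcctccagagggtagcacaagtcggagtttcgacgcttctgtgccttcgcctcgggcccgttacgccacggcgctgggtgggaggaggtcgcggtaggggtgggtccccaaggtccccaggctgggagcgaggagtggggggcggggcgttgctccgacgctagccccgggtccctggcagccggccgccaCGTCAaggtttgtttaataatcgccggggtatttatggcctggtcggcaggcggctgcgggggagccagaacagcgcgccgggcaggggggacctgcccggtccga
Spata7 promoter (GRCm38.p6, chr12:98627892-98628191, + strand): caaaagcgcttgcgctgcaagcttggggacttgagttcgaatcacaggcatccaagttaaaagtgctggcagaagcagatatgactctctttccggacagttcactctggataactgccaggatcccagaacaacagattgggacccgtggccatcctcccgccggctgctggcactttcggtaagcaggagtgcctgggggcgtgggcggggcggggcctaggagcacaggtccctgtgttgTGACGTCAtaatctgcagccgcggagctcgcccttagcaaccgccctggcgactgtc
Spata9 promoter (GRCm38.p6, chr13:75967489-75967788, + strand): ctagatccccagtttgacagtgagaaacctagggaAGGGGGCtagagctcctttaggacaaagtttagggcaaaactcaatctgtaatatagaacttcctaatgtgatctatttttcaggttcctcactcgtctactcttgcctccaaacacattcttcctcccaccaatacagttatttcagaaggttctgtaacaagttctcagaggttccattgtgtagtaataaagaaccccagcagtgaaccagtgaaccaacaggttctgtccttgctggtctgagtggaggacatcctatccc
Spata21 promoter (GRCm38.p6, chr4:141088095-141088394, + strand): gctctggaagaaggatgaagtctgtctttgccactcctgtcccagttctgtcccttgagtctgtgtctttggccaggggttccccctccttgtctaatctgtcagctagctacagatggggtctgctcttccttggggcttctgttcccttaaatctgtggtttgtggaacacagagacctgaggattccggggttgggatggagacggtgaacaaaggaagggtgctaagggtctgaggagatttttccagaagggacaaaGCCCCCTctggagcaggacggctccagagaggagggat

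Over the whole table, 1 array of each genotype was unlike the rest. Wildtype replicate 7 had a score of 40.2 on the first principal component and mutant replicate 8 one of 38.2, where scores of the remaining 6 arrays ran from -24.8 to -3.10. No label names a batch that holds this pair. Counts of called members are therefore given with all arrays and again with the pair as a block or left out. Most values of single genes, and those of the marker, partner and X-linked sets below, come from all arrays only. Markers of other cells moved with the pair. Of 22 probe sets of a list of 11 spermatid genes, 19 were above all other arrays on both, and the list's mean log2 levels there were 9.77 (wildtype) and 9.30 (mutant), against 7.57 to 8.23 on the other 6. A list of 6 fat genes, of which 5 had probe sets, gave 8 of 11 probe sets above all others, with mean levels of 6.73 and 6.61 against 4.73 to 5.46. The peritubular list went down on the pair. It had mean levels of 7.05 and 7.09 there, against 7.14 to 7.30, with 4 of 9 probe sets below all others. The spermatogonia list had mean levels of 7.25 and 7.32, against 7.30 to 7.47, so that mutant replicate 8 lay within the range of the others. Of its 12 probe sets, 4 were below all others, all of Zbtb16 or Stra8, and 1 was above. Of all probe sets, 10.3% were below on both arrays. The spermatocyte list lay between 10.56 and 10.77 on all 8 arrays, and Sycp3, of the synaptonemal complex, read 12.39 to 12.77. In tissue RNA, fewer cells of a type and less RNA per cell cannot be told apart.

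The first question was whether Spata and Tex transcripts differed between mutant and wildtype testis. After Benjamini-Hochberg adjustment in limma over the whole table, 0 of the 55 probe sets passed 0.05, as did 0 of all 45101 (0.0%), and the lowest adjusted p among members was 1.0. At an unadjusted limma p under 0.05 there were 2 members, Spata17 and Tex13, which is 3.64% of members beside 3.47% of all probe sets. Both were higher in mutant testis, beside 1.76% of all probe sets called higher, and 0 members were called lower, beside 1.7% of all. The levels of the genotypes did not overlap for 1 member, Tex22, or 1.82% beside 2.7% of all. These shares lie near the background.

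Across members, 22 differences were above 0 and 33 below, with a median of -0.023 on the log2 scale, beside 0.0032 for all probe sets. Single differences ran from -0.22 to 0.37. The median half-width of the members' 95% intervals was 0.21, so that a smaller change could not be seen for a typical member even before adjustment. In the spermatid and sperm group it was 0.37. This group had 8 differences above 0 and 14 below, with a median of -0.029. The meiosis group had 7 above and 3 below, with a median of 0.040, and the broadly expressed group 7 above and 16 below, with a median of -0.053. Among the 14 genes with more than 1 probe set, 8 had all their differences on 1 side of 0.

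**Figure D1:**
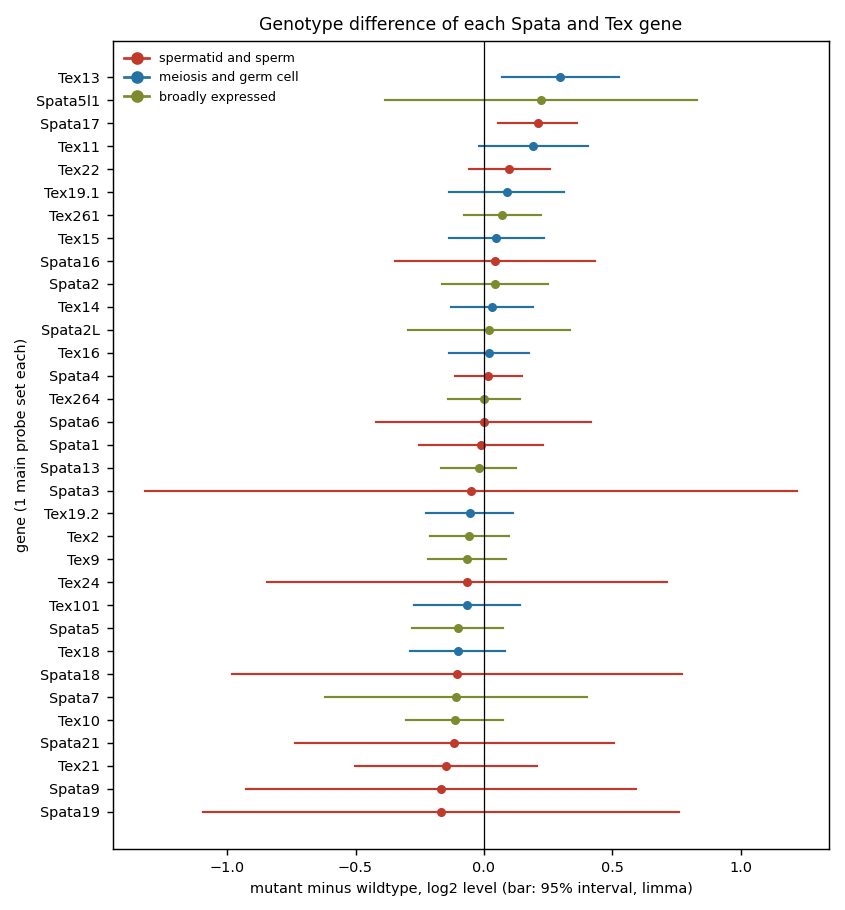
Difference in log2 level, mutant minus wildtype, for the main probe set of each of the 33 genes, with the 95% interval from limma and colours for the role groups. The intervals of Tex13 and Spata17 lie above 0 before any adjustment, and the widest interval is that of Spata3, from -1.32 to 1.22.

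Levels are given below on the log2 scale, first on wildtype replicates 1, 2, 4, 6 and 7 and then on mutant replicates 3, 5 and 8. Spata17 (1431729_at) read 9.57, 9.42, 9.45, 9.40 and 9.45, against 9.57, 9.71 and 9.73. Only wildtype replicate 1 reached the mutant values, and the group means were 9.46 ± 0.06 (SD, n = 5) and 9.67 ± 0.09 (SD, n = 3). The difference was 0.21 (SE 0.07, 95% interval 0.06 to 0.36), with an unadjusted limma p of 0.013 and an exact two-sided permutation p of 0.071. Its second probe set differed by 0.04, and that probe set was among those raised on the pair of arrays. Spata17 encodes a testis protein with calmodulin-binding motifs.

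Tex13 (1450555_at), an X-linked germ cell gene that RefSeq names Tex13b, read 7.91, 7.95, 7.79, 7.66 and 8.13, against 8.18, 8.25 and 8.13. The lowest mutant value met the highest wildtype value, that of replicate 7. The difference was 0.30 (SE 0.10, 95% interval 0.07 to 0.52), with an unadjusted limma p of 0.015 and an exact permutation p of 0.071. The other probe set of Tex13 differed by 0.16, also above 0, but its 95% interval of -0.09 to 0.40 included 0. With the pair of arrays left out the difference of 1450555_at was 0.39, and between the 2 arrays of the pair it was -0.0043, from 1 array each.

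Tex22 (1429548_at) was the member without overlap, at 10.82, 10.67, 10.81, 10.82 and 10.63 against 10.84, 10.88 and 10.83. The gap between the groups was far smaller than their ranges, and the difference was 0.10 (SE 0.07), with an unadjusted limma p of 0.19. Its exact permutation p was 0.0357, the smallest that the 56 splits of 8 arrays allow.

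The widest difference among members was that of 1 probe set of Spata6, whose protein joins the sperm head to the tail. Spata6 (1438023_at) read 6.97, 6.76, 6.73, 6.24 and 6.64, against 6.63, 7.34 and 7.14, a difference of 0.37 (SE 0.18) at an unadjusted limma p of 0.070. Mutant replicate 3 lay inside the wildtype range. The main probe set of Spata6 differed by -0.0017 (SE 0.19) and 1418651_at by 0.06. The dim 1445355_at, at 3.63 to 3.90, differed by 0.09. A difference of the size seen for 1438023_at was thus not found in the gene's other probe sets.

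Of the genes that act in meiosis and germ cells, none but Tex13 passed an unadjusted 0.05. Tex11, an X-linked factor of meiotic recombination whose loss causes male infertility, read 7.74, 7.61, 7.47, 7.45 and 7.76, against 7.84, 7.88 and 7.68. Its difference of 0.19 (SE 0.09) had an unadjusted limma p of 0.069, and only mutant replicate 8 lay within the wildtype range. Tex14, a protein of the intercellular bridges that join germ cells, read 10.35, 10.42, 10.28, 10.34 and 10.41, against 10.27, 10.48 and 10.44. The groups overlapped, with a difference of 0.03 (SE 0.07, 95% interval -0.13 to 0.19).

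Tex15, needed for meiotic recombination and the silencing of transposons, was likewise level, at 10.38, 10.52, 10.40, 10.55 and 10.62 against 10.42, 10.64 and 10.56. Its interval ran from -0.14 to 0.23. Tex101, a glycoprotein of the germ cell surface anchored by GPI, read 12.29, 12.39, 12.26, 12.33 and 12.37, against 12.03, 12.32 and 12.44. Mutant replicates 3 and 8 were the lowest and the highest of all arrays, so the difference of -0.07 (SE 0.09) lay within the mutant spread.

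The transposon control gene Tex19.1 read 9.28, 9.19, 8.96, 9.08 and 8.89, against 9.22, 9.24 and 9.04. Its paralog Tex19.2 read 10.12, 10.12, 9.99, 10.01 and 10.02, against 10.14, 9.99 and 9.87. The differences were 0.09 (SE 0.10) and -0.06 (SE 0.08), both smaller than the spread within the groups. Tex16, which is X-linked, and Tex18 differed by 0.02 and -0.10, with ranges over all arrays of 0.20 and 0.33.

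The broadly expressed members include factors of ribosome assembly, the endoplasmic reticulum and inflammatory signalling. Tex10, part of a nucleolar complex for ribosome biogenesis with Senp3, Las1l, Pelp1 and Wdr18, differed by -0.11 (SE 0.08) and 0.05 in its 2 probe sets. The ATPase Spata5, also of ribosome biogenesis, had 4 probe sets, all with differences below 0 (from -0.22 to -0.027). The lowest of these rested on mutant replicate 8 alone, where 1442456_at read 3.45 against 4.21 to 4.56 on the other arrays. Spata2, the adaptor of the deubiquitinase CYLD, differed by 0.04 and -0.13 in its 2 probe sets, and its paralog Spata2L by 0.02.

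Tex264, a receptor for the autophagy of endoplasmic reticulum, was among the steadiest members, at 9.30, 9.20, 9.16, 9.28 and 9.30 against 9.28, 9.22 and 9.25. Its 95% interval of -0.14 to 0.14 was centred near 0. The lipid transfer protein Tex2 differed by -0.06 in both probe sets, and Spata13, a partner of Apc, by -0.020 and 0.10. Tex261 (3 probe sets) and Tex9 (4 probe sets) ran from -0.05 to 0.07 and from -0.07 to -0.023. Spata5l1, at log2 levels of 3.55 to 4.78, varied by 1.23 over the arrays. Its difference of 0.22 had an interval of -0.39 to 0.83.

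A list of 19 genes known to act with Spata or Tex proteins, with 44 probe sets, had 26 differences above 0 and 18 below, with 0 past adjustment. In this list 1 gene, Meiob, acts with Spata22, which is not among the members. At an unadjusted limma p under 0.05, 1 of the 44 was lower, that of Ly6k, a partner of Tex101, at -0.16 (SE 0.07), and 0 were higher. Over all probe sets, 1.7% were called lower and 1.76% higher. The wildtype and mutant values of Ly6k overlapped, and its other probe set differed by 0.064. Cyld (1445213_at), the partner of Spata2, and Las1l (1452266_at), the partner of Tex10, did not overlap between genotypes, at differences of -0.11 and 0.13, with unadjusted limma p of 0.084 and 0.080. Of all probe sets, 2.7% did not overlap. The other probe sets of both genes overlapped, with differences of 0.073, 0.044 and -0.0038 for Cyld and -0.037 for Las1l. Spata2 and Tex10, their partners among the members, did not pass the test in either direction.

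The members also varied between arrays of 1 genotype. Over the 8 arrays, 32 probe sets had a range under 0.5 on the log2 scale, and 12 probe sets of 10 genes had a range of at least 1. Of the 55, 19 (34.5%) were higher on both wildtype replicate 7 and mutant replicate 8 than on every other array, beside 8.6% of all probe sets, and 4 (7.27%) were lower on both, beside 10.3%. On both arrays 7 members, or 12.7%, lay at least 1 above the mean of the other arrays of their genotype, beside 0.783% of all. The pair was defined from the same table, so these counts describe the arrays and are no test. By role, 14 of 22 probe sets of the spermatid and sperm group were higher on both arrays, against 0 of 10 in the meiosis group and 5 of 23 in the broadly expressed group. The 14 include probe sets of Spata4, Spata9, Tex21 and Tex24, whose placement is a working one. Role groups were set with earlier results of these data known, so this contrast is a description and no test. The median departures of wildtype replicate 7 and mutant replicate 8 from the others of their genotype were 0.35 and 0.55, 0.054 and -0.13, and 0.065 and -0.032 in these groups. The 19 of 22 spermatid markers that were raised on the same arrays stand beside this, and neither their part nor that of the fat genes in the members' levels was tested.

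**Figure D2:**
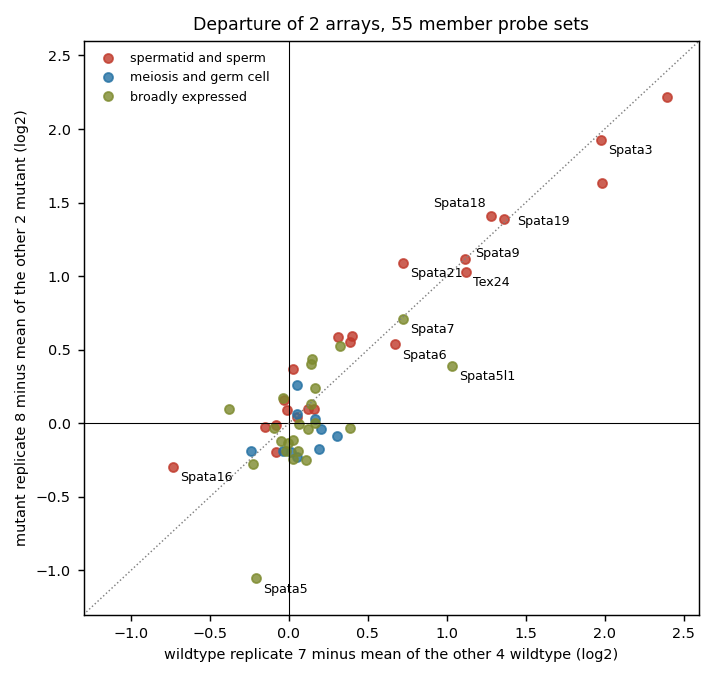
Departure of wildtype replicate 7 from the mean of the other 4 wildtype arrays (horizontal, log2) against that of mutant replicate 8 from the other 2 mutant arrays (vertical, log2), 1 point per member probe set, with the line of equal departures dotted. The 3 points of Spata3 lie farthest out, at 1.98 to 2.40 and 1.63 to 2.22, and the points of the meiosis and germ cell group lie close to 0.

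Spata3, a testis gene of spermatids, had the widest range. Its probe set 1432375_a_at read 6.95, 7.38, 7.53, 7.55 and 9.33, against 7.14, 6.98 and 8.98. Both arrays of the pair lay far above the rest in all 3 probe sets, by 1.98 to 2.40 on wildtype replicate 7 and by 1.63 to 2.22 on mutant replicate 8. The group means of 7.75 ± 0.92 (SD, n = 5) and 7.70 ± 1.12 (SD, n = 3) hardly differed. The difference was -0.05, with a 95% interval of -1.32 to 1.22, so that even changes of 1 on the log2 scale could not be seen for Spata3 in the full set of arrays.

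Spata19, a protein of the mitochondria of the sperm midpiece, read 9.05, 9.44, 9.41, 9.45 and 10.70, against 8.64, 9.32 and 10.37. The pair departed by 1.36 and 1.39, nearly the same in both genotypes. Mutant replicate 3 was the lowest array, 0.69 below the mean of the 4 wildtype arrays outside the pair, and mutant replicate 5 was 0.020 below it. Spata18 (Mieap), a p53-induced factor of mitochondrial quality control that is also abundant in testis, read 8.37, 8.48, 8.56, 8.73 and 9.82, against 8.04, 8.40 and 9.63. It departed by 1.28 and 1.41, and mutant replicate 3 was again lowest.

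The main probe set of Spata9 (1453213_at) read 8.12, 8.39, 8.37, 8.39 and 9.43, against 7.70, 8.30 and 9.12. The second, 1454237_at, departed by 0.03 and 0.37, so the probe sets of Spata9 did not move alike. Tex24 read 7.74, 7.93, 7.79, 8.08 and 9.01, against 7.26, 8.14 and 8.73. In both genes the pair was high and mutant replicate 3 low.

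Spata21, an EF-hand protein, read 9.62, 9.77, 9.85, 9.93 and 10.52, against 9.25, 9.67 and 10.55. Here the 2 arrays of the pair reached nearly the same level, and mutant replicate 8 was the highest array. Spata7, which supports the connecting cilium of photoreceptors and was grouped with the broadly expressed genes, read 8.84, 8.80, 8.84, 8.79 and 9.54, against 8.36, 8.88 and 9.33. The 4 wildtype arrays outside the pair differed by less than 0.1, while wildtype replicate 7 departed by 0.73 and mutant replicate 8 by 0.71. Its promoter was the member promoter with the full cAMP response element, shown above.

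**Figure D3:**
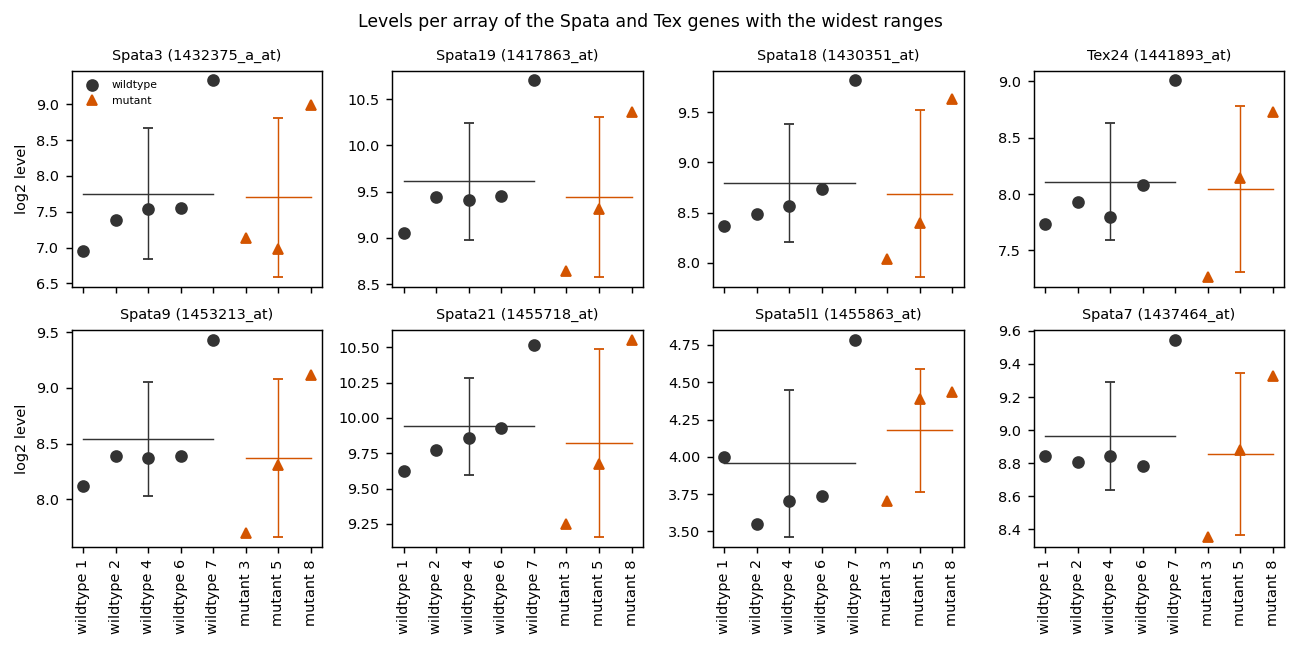
Log2 level on each array for the 8 genes whose main probe set had a range of at least 1, with wildtype as circles and mutant as triangles, group means as lines and SDs as bars, each panel on its own scale. Wildtype replicate 7 is the highest wildtype array and mutant replicate 8 the highest mutant array in every panel.

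Smaller departures were seen for Tex21, at 0.31 to 0.40 and 0.59 in its 2 probe sets, and for the main probe set of Spata6. The latter read 10.84, 10.85, 10.80, 10.91 and 11.52, against 10.68, 10.93 and 11.34. Another probe set of Spata6, 1418651_at, departed by -0.08 and -0.01, so that the rise was not shared by the whole gene as the array measured it.

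Other genes of this role did not share these departures. Spata16, a Golgi protein needed to form the acrosome, was lower there, at 9.63, 9.59, 9.54, 9.51 and 8.84 against 9.62, 9.51 and 9.27 for 1431968_at. Its second probe set was also lowest on both arrays, with departures of -0.08 and -0.19. Spata4 was the steadiest member and counts among the 14 only by a narrow margin, at 13.73, 13.73, 13.71, 13.68 and 13.76 against 13.69, 13.75 and 13.77, a range of 0.09. Spata1 had a range of 0.49, with mutant replicates 3 and 5 as its lowest and highest arrays at 11.93 and 12.42.

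**Figure D4:**
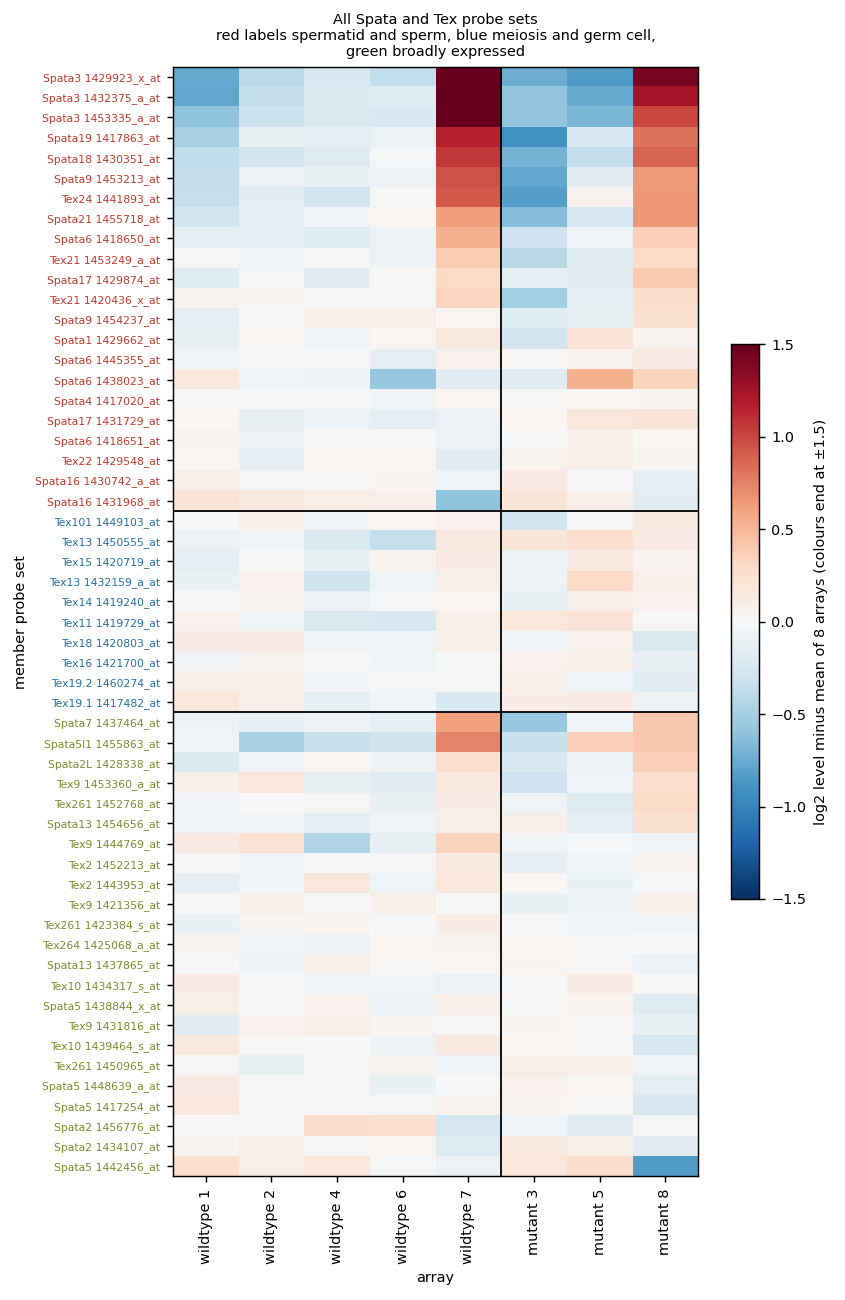
Log2 level of each of the 55 probe sets minus its mean over the 8 arrays, in rows ordered by role group and by departure of the pair, with wildtype and mutant arrays parted by a line. The red cells gather on wildtype replicate 7 and mutant replicate 8 in the spermatid and sperm group, whereas the 10 rows of the meiosis and germ cell group stay within a range of 0.59.

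The genotypes were then compared with the pair as a block of its own. In this fit 10 members (18.2%) had an unadjusted limma p under 0.05, beside 5.86% of all probe sets, and 8 (14.5%) were lower in mutant testis, beside 2.83% of all. The lowest adjusted p among members was 0.80, so that none passed. The 8 probe sets were those of Spata18, Spata19 and 1 of the probe sets of Spata9, with all 3 of Spata3 and both of Tex21. All 8 were also among those raised on the pair, which the block was built on. The block difference of Spata3 ran from -0.40 to -0.31, and Spata19 gave -0.35 (SE 0.15), Spata9 -0.32 (SE 0.13), Spata18 -0.28 (SE 0.11) and Tex21 -0.26 and -0.21.

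Mutant replicate 3 weighed on these values. It was the lowest array in 5 of the 8 probe sets, and in 17 of all 55 members, beside 5496 of 45101 probe sets. Against the mean of the 4 wildtype arrays outside the pair it lay 0.69 to 0.22 lower across the 8, while mutant replicate 5 lay 0.40 to 0.013 lower. The list of spermatid markers was lowest on mutant replicate 3 too, at a mean level of 7.57, and its part in these differences was not tested. With mutant replicate 3 left out of the blocked fit, 5 members had an unadjusted limma p under 0.05, beside 6.12% of all probe sets. They were the 3 probe sets of Spata3, lower by differences of -0.46 to -0.36, with Spata17 (0.26) and Spata6 (1438023_at, 0.60). Spata19, Spata9 and Spata18 then gave -0.14, -0.13 and -0.16, and Tex21 (1453249_a_at) -0.11. Spata17 and Tex13 differed by 0.20 (SE 0.07) and 0.28 (SE 0.10) with the block. With both arrays of the pair left out instead, 9 members (16.4%) had an unadjusted limma p under 0.05, beside 6.55% of all probe sets, and 11 (20.0%) did not overlap between 4 wildtype and 2 mutant arrays, beside 14.9% of all. Of the 9, 7 were lower in mutant testis (12.7%, beside 3.05% of all), with -0.32 for Spata18, -0.33 for Spata21, -0.29 and -0.35 for 2 probe sets of Spata3, -0.27 and -0.34 for Tex21 and -0.24 for Spata2 (1456776_at). The others were Tex13 and Tex11, at 0.39 and 0.29, whereas Spata17 differed by 0.18 at an unadjusted limma p of 0.069.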

How the data were processed

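Total RNA of 8 testes was hybridised to Affymetrix Mouse430_2 arrays, 1 per sample, and titles of the samples gave groups and replicates. The deposited table held log2 levels per probe set that the authors made with Affymetrix Expression Console and R/Bioconductor, using RMA background correction and quantile normalisation. Tool versions and the genome build are not given in the sources used here. Median levels of the arrays were 6.40 to 6.45, and precision is limited by how few arrays there are. Group means, fold values and p-values in that table, and 2 further tables of log2 differences and p-values, held the authors' own comparisons and were not used.

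Levels were used as deposited and unfiltered. All 45101 probe sets, 64 of them controls, were fitted in limma 3.58.1 (R 4.3.3) with lmFit and eBayes on genotype alone, two-sided, with Benjamini-Hochberg adjustment, after tests on simulated data. Single members were also tested by exact two-sided permutation over the 56 splits. A gene's main probe set is one without an _s_, _x_ or _a_ suffix where one exists, then that of highest mean level. For Tex9 and Spata16 this passed over a brighter probe set with the suffix _a_. The mean levels were 6.10 for the main one and 10.0 for the brighter one (Tex9), and 9.44 and 11.43 (Spata16). Full array values are given for members with an unadjusted p under 0.05 or no overlap, for up to 12 genes of the widest range, and for genes of well-known role. RefSeq (GRCm38.p6) matched 32 of the 33 genes and gave the promoter sequences. Members, role groups and lists were chosen with earlier results of these data known. Alternatives left out each array or the pair of replicates 7 and 8, used that pair as a block, centred or renormalised arrays, removed dim probe sets, or changed the variance model or array weights. The block without mutant replicate 3 was chosen after seeing the data. Tables were handled in Python 3.11.15 with pandas 2.3.3, numpy 2.4.6, scipy 1.17.1 and matplotlib 3.10.9.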

Additional observations from a re-analysis of the deposited data

Results flagged for a closer look

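On wildtype replicate 7, 12 of the 55 probe sets lay outside the other 4 wildtype arrays by Dixon's criterion, 11 high and 1 low, and 0 were flagged on any other wildtype array. These 12 are 21.8% of members, beside 3.63% of all probe sets flagged on that array, where 2.25% were high and 1.38% low. Chance alone flags about 1 in 20 groups, counting either end and any array of the group. That rate is thus no measure for 1 array that already stood apart. The 3 mutant arrays are too few for this check. For Spata3, wildtype replicate 7 read 9.33, 9.34 and 8.81 in the 3 probe sets, where the nearest wildtype values were 7.55, 7.48 and 6.63. Spata19 read 10.70 beside 9.45, Spata18 9.82 beside 8.73, and Spata9 (1453213_at) 9.43 beside 8.39. Tex24 read 9.01 beside 8.08, Spata7 9.54 beside 8.84 and Spata6 (1418650_at) 11.52 beside 10.91. The 2 probe sets of Tex21 read 8.43 and 8.09, beside 8.07 and 7.82. Spata16 (1431968_at) was the low one, at 8.84 beside 9.51.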

How the results depend on the processing

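The count of members at an adjusted p under 0.05 was 0 in all 17 alternatives. The count at an unadjusted p, 2 as reported, was 2 to 5 when single arrays were left out (4 without wildtype replicate 1, 5 without wildtype replicate 7 and 4 without mutant replicate 8, beside 3.16%, 3.59% and 5.87% of all probe sets), 9 without the pair (6.55% of all probe sets), 10 with the pair as a block and 5 with the block without mutant replicate 3. The count without overlap, 1 as reported, was 1 to 9 when single arrays were left out (3 and 4 without wildtype replicates 1 and 7, and 5, 2 and 9 without mutant replicates 3, 5 and 8, beside 4.49%, 4.63%, 8.57%, 6.64% and 11.5% of all), 11 without the pair (14.9% of all) and 2 after repeated quantile normalisation. The median difference stayed between -0.039 and 0.061, and lay above 0 without wildtype replicate 7 (0.029) or mutant replicate 3 (0.061). Of 576 alternative values of 34 named differences, 54 changed sign, with a lowest adjusted p of 0.70. The cause was not tested. Leaving out single arrays gave ranges of -0.12 to 0.13 for Spata1, -0.046 to 0.019 for Spata13, -0.10 to 0.14 for Spata16, -0.57 to 0.22 for Spata18, -0.63 to 0.23 for Spata19, -0.020 to 0.13 for Spata2, -0.48 to 0.17 for Spata21 and -0.15 to 0.15 for Spata2L. They were -0.69 to 0.35 for Spata3, -0.18 to 0.15 for Spata6 (1418650_at), -0.35 to 0.14 for Spata7, -0.54 to 0.17 for Spata9, -0.15 to 0.051 for Tex101, -0.010 to 0.094 for Tex14 and -0.0026 to 0.11 for Tex15. They were -0.016 to 0.084 for Tex16, -0.12 to 0.0069 for Tex19.2, -0.35 to 0.015 for Tex21, -0.41 to 0.32 for Tex24 and -0.022 to 0.013 for Tex264. Repeated quantile normalisation gave 0.00083 for Spata1, 0.017 for Spata6 and 0.0032 for Tex264. Array weights gave 0.019 for Spata1, 0.0034 for Spata13 and -0.025 for Spata2L. Without the pair, values were 0.024 for Spata13, -0.0042 for Spata16, -0.088 for Spata2L and 0.014 for Tex264, and with the pair as a block -0.035 for Spata2L. With the block and without mutant replicate 3 they were 0.11 for Spata1, 0.028 for Tex101 and 0.049 for Tex24. Tex13, Spata17, Tex22, Tex11 and Spata6 (1438023_at) kept their direction under every alternative. So did Spata4, at a difference of only 0.017. The main probe sets of Spata5l1, Tex19.1 and Tex261 stayed above 0 without single arrays, without the pair and with the block. Those of Spata5, Tex2, Tex9, Tex10 and Tex18 stayed below 0 in the same fits. None of these differences passed adjustment. The study's text calls the animals littermates, but no label names a litter, and replicate numbers run on across both genotypes. No paired analysis was therefore possible.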

Other observations

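The X-linked members were set apart after their values had been seen. All 4 X-linked probe sets (Tex11, Tex16 and both of Tex13) had differences above 0, with a median of 0.17. Of all 1124 X-linked probe sets, 710 (63.2%) had differences above 0, with a median of 0.037, and at an unadjusted limma p under 0.05 there were 51 higher and 9 lower. On other chromosomes 51.9% of 32427 probe sets were above 0, with a median of 0.0041, and 539 were higher and 525 lower. Of 91 probe sets of marker genes for 9 cell types, 7 (7.69%) had an unadjusted limma p under 0.05, beside 3.47% of all probe sets, and 0 passed adjustment. They were Star (0.50) and Cyp11a1 (0.30) of Leydig cells, Gfra1 (0.35) and Uchl1 (0.26) of spermatogonia, Fshr (0.18) of Sertoli cells and Lcn9 (0.16) of epididymis, higher in mutant testis, and Sycp1 of spermatocytes (-0.25). The other probe sets of Star differed by 0.15 and 0.12. The called Cyp11a1 probe set read 5.17 to 5.76, and the brightest of that gene, 1448804_at, at 9.60 to 10.46, differed by 0.14. Cyp17a1 and Lhcgr differed by 0.055 and -0.076. Of the 8 Leydig probe sets, 7 had differences above 0 and 1 below. Other probe sets of spermatogonial genes differed by 0.10 and -0.04 (Gfra1) and by -0.12 to 0.011 (Zbtb16). Differences above and below 0 numbered 9 and 3 in the spermatogonia list and 8 and 1 in the Sertoli list. They numbered 3 and 2 in the epididymis list, and 3 and 5 in the spermatocyte list. The called Lcn9 probe set was dim, at up to 4.82, and Lcn8 of the same list differed by -0.16. Among the spermatocyte genes, Dmc1 differed by 0.17 and 0.14 and Ccna1 by 0.068. Crisp1, an epididymal gene, read 5.82 on wildtype replicate 1 and 6.38 on mutant replicate 8, and 3.17 to 3.34 on the others.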
